A study of Homo sapiens with 12 samples.

Results

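The genes described here encode 8 proteins known to work with FoxK1: SIN3A, SUDS3 and HDAC1 of the Sin3 corepressor, BAP1 and ASXL1 of the BAP1 deubiquitinase, and the Dishevelled proteins DVL1, DVL2 and DVL3. FoxK1 peaks were assigned to a gene when their summit, the point of highest signal, lay within 5 kb of 1 fixed transcription start of that gene on genome build hg19. Of the 223205 deposited peaks in 6 libraries, which held 26082 to 48208 each, 80 met this rule. The starts were those of SIN3A (chromosome 15, 75748183, minus strand), SUDS3 (chromosome 12, 118814354, plus), HDAC1 (chromosome 1, 32757708, plus), BAP1 (chromosome 3, 52444121, minus), ASXL1 (chromosome 20, 30946147, plus), DVL1 (chromosome 1, 1284492, minus), DVL2 (chromosome 17, 7137863, minus) and DVL3 (chromosome 3, 183873284, plus). No hg19 gene model was used, so peaks are placed by distance from these starts and not by exon or intron. Chromatin immunoprecipitation and sequencing (ChIP-seq) with a FoxK1 antibody was done in HepG2 cells, a hepatocellular carcinoma line. All cells spent 16 h in serum-free medium with albumin, and then either received 100 nM insulin for 20 min (3 libraries) or stayed untreated (3 libraries). Whether replicates were grown separately is not stated, so p-values here reflect only how these libraries varied, which may be technical. All libraries come from this 1 tumour line, and no library from cells without FoxK1 is among the samples, so the specificity of the antibody was not tested. Peak lists hold no expression values, so hepatocyte markers could not be checked.

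FoxK1 is a forkhead transcription factor, and forkhead domains recognise a short AT-rich motif. It is known as a repressor that recruits the Sin3 complex, in which SIN3A is the scaffold, SUDS3 a structural subunit and HDAC1 a catalytic subunit that removes acetyl groups from histones. FoxK1 and its paralog FoxK2 also bind BAP1, which with ASXL1 removes ubiquitin from histone H2A, and FoxK proteins bind Dishevelled proteins, the cytoplasmic transducers of Wnt signals. Insulin is known to move FoxK1 from the cytoplasm to the nucleus. The comparison asks whether FoxK1 lies on the genes of its own partners and whether insulin changed that.

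The promoter sequences of ASXL1, HDAC1, DVL2 and SUDS3 are given because each of these 4 has a site whose strongest summits lay within 221 bp of the hg19 start. They lay before the start in every library that called the site at ASXL1 and HDAC1, and on both sides of it at DVL2 and SUDS3. The sequences are the 250 bases before the start, from RefSeq on build GRCh38.p14, 5′ to 3′ on the transcribed strand. Of the 8 genes, 7 matched the RefSeq promoter table. The table's starts were matched by gene symbol and not by position, so their offset from the hg19 starts is not known. ASXL1 has 3 starts in the table, of which the most upstream is shown; the others lie 13 and 734 bases from it. The shown stretches are chr20:32358081-32358330 (plus strand) for ASXL1, chr1:32291833-32292082 (plus) for HDAC1, chr17:7234518-7234767 (minus) for DVL2 and chr12:118376305-118376554 (plus) for SUDS3. Capitals mark every match, on either strand, to the motifs named in the next paragraph, and a match that runs past the start is cut there.
ASXL1: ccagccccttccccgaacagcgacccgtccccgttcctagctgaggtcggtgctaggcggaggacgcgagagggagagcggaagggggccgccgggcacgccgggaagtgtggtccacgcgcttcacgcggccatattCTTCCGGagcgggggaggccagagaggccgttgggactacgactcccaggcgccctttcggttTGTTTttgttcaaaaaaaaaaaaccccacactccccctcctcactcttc
HDAC1: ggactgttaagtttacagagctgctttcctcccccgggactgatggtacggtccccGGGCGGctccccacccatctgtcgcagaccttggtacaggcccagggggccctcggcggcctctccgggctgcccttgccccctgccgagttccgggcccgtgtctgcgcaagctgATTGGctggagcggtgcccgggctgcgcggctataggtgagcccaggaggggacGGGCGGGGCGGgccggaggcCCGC
DVL2: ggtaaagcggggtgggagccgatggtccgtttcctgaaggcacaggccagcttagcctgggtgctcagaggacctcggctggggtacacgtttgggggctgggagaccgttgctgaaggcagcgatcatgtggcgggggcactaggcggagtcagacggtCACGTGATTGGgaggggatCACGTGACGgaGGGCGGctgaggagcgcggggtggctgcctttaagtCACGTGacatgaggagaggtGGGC
SUDS3: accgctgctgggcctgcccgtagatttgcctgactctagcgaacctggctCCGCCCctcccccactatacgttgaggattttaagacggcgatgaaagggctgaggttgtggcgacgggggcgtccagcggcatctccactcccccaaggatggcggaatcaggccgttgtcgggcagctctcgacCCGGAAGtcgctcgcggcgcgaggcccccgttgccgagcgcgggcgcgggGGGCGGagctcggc

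None of the 10 member promoter entries, each 300 bases from 250 before to 50 after a start, held the forkhead motif GTAAACA, against 3.42% of the 35116 promoters in the table. The shorter forkhead core AAACA, which is part of GTAAACA, was in 44.4% of all promoters and among members in those of ASXL1 and SIN3A. At ASXL1 its first base is at position -49, where -1 is the base before the start. The ETS motif CCGGAAG (10.3% of all promoters) was found at ASXL1 (position -112), SUDS3 (position -64) and DVL3. DVL2 held the E-box CACGTG (7.26% of all promoters) 3 times, at positions -90, -71 and -24. The CCAAT box (34.6%) was found at SIN3A, HDAC1 (position -78) and DVL2, and the GC box GGGCGG (45.0%) at all 7 matched members, for ASXL1 only at the start 734 bases away. DVL1 held the CRE motif TGACGTCA (1.85%) and the NRF1 motif GCATGCGC (3.05%). The shorter CRE motif TGACG (24.6%), which overlaps the full CRE, was found at SIN3A, DVL1 and DVL2. The AP-1 motif TGANTCA (7.71%) and the YY1 motif AAGATGGCG (1.75%) had no match at a member. A match describes letters in the window and not a bound site.

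FoxK1 peaks were found near every one of the 8 genes, and near 7 of them in every library. The exception was HDAC1, which had no summit within 5 kb in either replicate 3 library. For comparison, 4.81% of the 10 kb windows along chromosomes 1 to 22 and X had a summit in all 6 libraries, and 16.4% had one in any library. Those windows are mostly not promoters, and the starts of other genes were not placed on hg19, so the share is no measure of what promoters have in general. For the same reason the other genes of these complexes were not analysed here. The number of summits over the 8 starts was 13, 15 and 14 in insulin replicates 1, 2 and 3 and 15, 14 and 9 in untreated replicates 1, 2 and 3. The means were 14 ± 1.00 (SD, n = 3) with insulin and 12.7 ± 3.21 (SD, n = 3) in untreated cells, and the libraries overlapped. Without untreated replicate 3 the insulin-minus-untreated difference of 1.33 became -0.5.

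**Figure D1:**
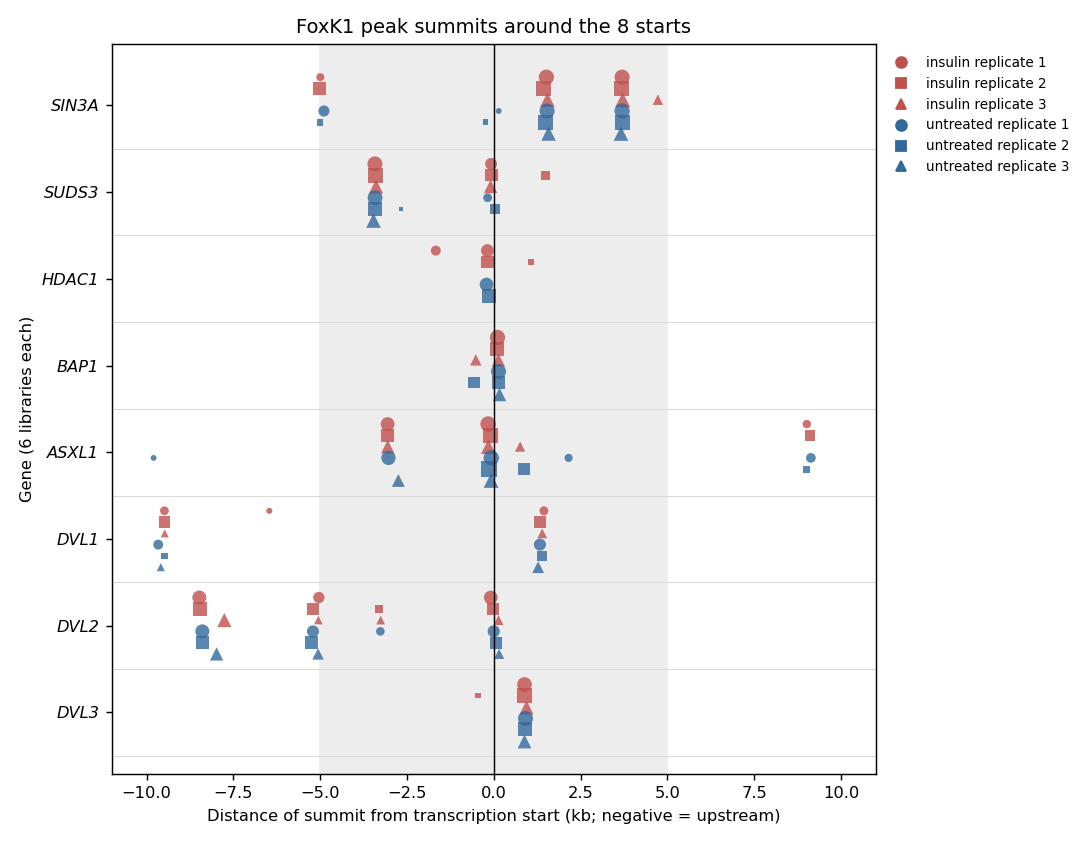
Each symbol is a FoxK1 peak summit, placed by its distance from the transcription start in kb (negative is upstream in the direction of transcription), with 6 rows per gene for the 3 insulin (red) and 3 untreated (blue) libraries. Larger symbols have a higher percentile of −log10 q in their own list, and grey marks the 5 kb window. SIN3A has a pair of downstream columns, SUDS3 its larger symbols upstream, and HDAC1 none for replicate 3.

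Merging peaks of all lists that shared at least 1 bp placed the 80 summits in 18 regions. Of these 18, 8 (44.4%) were called in all 6 libraries, against 23.3% of the 68127 merged regions of the genome. The 18 were chosen for lying near gene starts, and the merged regions were not. The share near the starts of other genes was not measured. The 5 regions called in a single library lay 1668 bp upstream and 1074 bp downstream of HDAC1, 1502 bp downstream of SUDS3, 2157 bp downstream of ASXL1 and 451 bp upstream of DVL3, each at a percentile of 35.3 or lower. None of the 18 was called in all 3 libraries of one treatment and in none of the other, a pattern shown by 0.376% of all regions in favour of insulin and by 0.0352% in favour of no treatment. The main site of a gene was its region called in most libraries, with ties settled by the mean percentile of −log10 q. The percentile places a peak within the list of its own library, where 100 is the strongest peak. The deposited fold is the authors' value for the peak summit over its local background, and it describes a peak within its own list only.

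SIN3A, the scaffold of the corepressor, had a pair of strong sites downstream of the start, both called in all 6 libraries. The main site at chr15:75745863-75748807 had its strongest summit 1516, 1439 and 1548 bp downstream in insulin replicates 1, 2 and 3 and 1536, 1481 and 1579 bp downstream in untreated replicates 1, 2 and 3. Its fold was 17.1, 19.1 and 9.22 after insulin and 8.51, 8.91 and 7.64 without it. Its percentile was 92.8, 96.2 and 85.5 in insulin lists and 91.3, 92.1 and 83.4 in untreated lists. Every library thus had it among the stronger peaks, with replicate 3 lowest in both treatments. Peaks here were broad, between 1360 and 2811 bp, which placed their width at a percentile of 95.6 or higher in every list. In untreated replicates 1 and 2 the same region held a further weak peak over the start, with summits 144 bp downstream and 235 bp upstream and a fold of 2.39 and 2.33.

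The other SIN3A site, chr15:75742431-75745497, lay 365 bp from the first, and its strongest summits were 3665 to 3715 bp downstream of the start. In insulin replicate 3 this region was split and held another peak, with a summit 4729 bp downstream and a fold of 4.65. Its percentile was 91.2, 84.5 and 90.3 in insulin lists and 93.5, 86.7 and 85.4 in untreated lists, so the stronger of the pair differed between libraries. Without insulin replicate 2 this site, with a mean summit distance of 3696 bp, took the place of the main site. RefSeq lists 2 starts for SIN3A that are 4125 bases apart, and which of them is the hg19 start used here was not determined. A further, weaker region, about 5 kb upstream, was called in both treatments in replicates 1 and 2. It straddled the window's edge, with summits at 4995 and 4891 bp inside in insulin replicate 1 and untreated replicate 1, and at 5026 and 5002 bp outside in insulin replicate 2 and untreated replicate 2. The percentiles of these peaks were 19.5 and 45.5 inside, and 60.8 and 11.1 outside.

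At SUDS3, a subunit of the Sin3 complex, the strong site was upstream of the start and not at it. The main site, chr12:118810395-118812019, had its strongest summit 3422, 3398 and 3389 bp upstream after insulin and 3418, 3418 and 3486 bp upstream without it. In untreated replicate 2 the region held another weak peak, with a summit 2676 bp upstream and a fold of 2.22. Its fold was 12.9, 11.2 and 8.54 in insulin lists and 6.96, 6.61 and 8.20 in untreated lists, with percentiles between 81.1 and 90.2. It was called in all 6 libraries with the narrowest spread of percentile of any member (SD 3.41, n = 6). No other region called in all 6 libraries lay within 100 kb of it, and the nearest was 233014 bp away. The median over all 15887 such regions was 20207 bp, with 3 others within 100 kb. In the gene order of GRCh38.p14 the next protein-coding gene upstream is TAOK3, which is transcribed in the opposite direction. The start of TAOK3 was not placed on hg19. Whether the main site lies nearer to that start than to the start of SUDS3 was therefore not determined.

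The start of SUDS3 itself carried a weaker region, chr12:118813889-118814634, called in 5 of 6 libraries and not in untreated replicate 3. Its summits were 76, 64 and 90 bp upstream in insulin replicates 1, 2 and 3, 176 bp upstream in untreated replicate 1 and 38 bp downstream in untreated replicate 2. The percentiles were 53.0, 59.1 and 69.3 after insulin and 25.7 and 35.5 in the 2 untreated lists that had it. Lists of different length and depth give these percentiles, so they do not measure a change. The promoter sequence given above for SUDS3 is the one next to this weaker region.

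HDAC1, the deacetylase, had its main site at the start, chr1:32756865-32758004, in 4 of 6 libraries. The summit was 181 and 171 bp upstream in insulin replicates 1 and 2 and 221 and 150 bp upstream in untreated replicates 1 and 2. The fold was 6.47 and 5.79 after insulin and 5.24 and 4.67 without it, and the percentiles were 64.3 and 62.0, and 73.2 and 69.2. The site was missing from both replicate 3 lists, which are the shortest, with 27503 and 26082 peaks. Of the 25150 regions called in all 4 replicate 1 and 2 libraries, 18.3% were likewise called in neither replicate 3 library. HDAC1 was thus called or missing alike in the replicates of both treatments.

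BAP1, the deubiquitinase, had a single region at its start, chr3:52443566-52445316, in all 6 libraries. The strongest summit was 107, 93 and 135 bp downstream after insulin and 113, 129 and 148 bp downstream without it, taking BAP1 as transcribed toward lower coordinates. Its fold was 18.3, 11.4 and 7.11 in insulin lists and 8.39, 4.88 and 4.95 in untreated lists. The percentile was 93.8, 88.0 and 70.6 after insulin and 89.7, 66.4 and 71.7 without it, the widest range among the 5 stronger members. In insulin replicate 3 and untreated replicate 2 the region was split, with another summit 516 and 566 bp upstream, and the strongest peak there was only 413 and 366 bp wide, against 1245 to 1619 bp in the other libraries. The next protein-coding gene upstream is PHF7. Its start was not placed on hg19, so whether this region also reaches that start was not determined.

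ASXL1, the partner that activates BAP1, had the highest −log10 q of the 8 main sites in 6 of 6 libraries. In insulin replicate 3 the farther SIN3A site stood above it (rank 2642 against 3311 in that list). Its main site, chr20:30945324-30947441, had its strongest summit 162, 92 and 155 bp upstream in insulin lists and 71, 136 and 76 bp upstream in untreated lists. The region was split in insulin replicate 3 and untreated replicate 2, with a weaker summit 761 and 875 bp downstream. Its rank by −log10 q was 1629, 1203 and 3311 in insulin replicates 1, 2 and 3 and 1941, 1145 and 3235 in untreated replicates 1, 2 and 3. The percentile was between 87.6 and 97.3. Ranked by fold instead, ASXL1 was first in none of the 6 libraries and stood between place 3 and place 5 of the main sites. Its fold was 12.05, 12.2 and 6.08 after insulin and 6.40, 6.55 and 5.16 without it.

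The gap between these orders came with a high background at the ASXL1 start. The background expected at the summit was 14.9, 22.8 and 9.70 fragments in insulin lists and 40.4, 25.7 and 11.4 in untreated lists, which is 2.86 to 4.76 times the median peak of the same list and above 98.6% of its peaks. Peaks on chromosome 20 as a whole had 1.34 to 1.59 times the median background of their list. The fragments counted at the summit were 191, 290 and 64 after insulin and 264, 174 and 63 without it, the most of any member site in every library. The part of this background in the order by −log10 q was not tested. ASXL1 had a second region at chr20:30942763-30943587, about 3 kb upstream, called in 5 of 6 libraries and not in untreated replicate 2, with percentiles between 64.0 and 81.1.

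**Figure D2:**
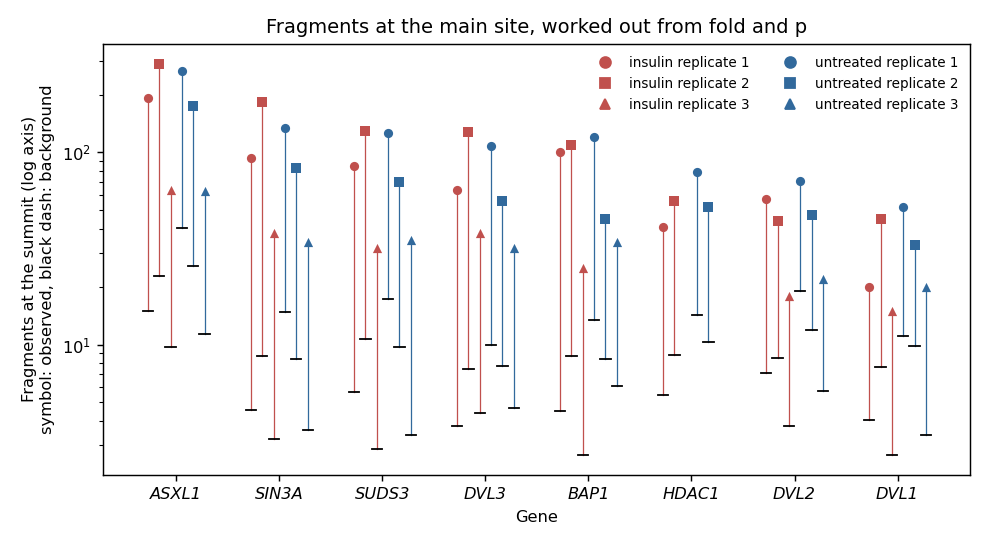
Coloured symbols give the fragments at the summit of the main site of each gene in each library, worked out from the deposited fold and p, and black dashes the background at the same summit, on a log axis. ASXL1 reached 290 fragments and stood on the highest background in every library, while DVL1 had between 15 and 52 fragments.

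The Dishevelled genes differed from each other. DVL3 had a strong site downstream of the start at chr3:183873594-183874907, with summits 860, 879 and 928 bp away after insulin and 902, 895 and 861 bp away without it. Its fold was 13.6, 15.1 and 7.22 in insulin lists and 9.96, 6.55 and 5.80 in untreated lists. Its percentile was 86.2, 92.1 and 81.1, and 90.0, 80.7 and 75.0. In every library DVL3 stood above both DVL1 and DVL2, and its range did not overlap theirs.

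DVL2 had its main site on the start, chr17:7137420-7138420, in all 6 libraries. The summit was 85 and 20 bp upstream in insulin replicates 1 and 2, 138 bp downstream in insulin replicate 3, and 1, 68 and 156 bp downstream in untreated replicates 1, 2 and 3. In both treatments the replicate 3 summit lay farthest downstream. The fold was 7.15, 4.73 and 3.98 after insulin and 3.60, 3.72 and 3.41 without it, with percentiles of 74.4, 49.5 and 35.3, and of 56.8, 56.0 and 36.7. Peaks on chromosome 17 had 1.24 to 1.36 times the median background of their list, and the DVL2 summits 1.17 to 2.24 times. A weak region about 3.3 kb upstream was called in insulin replicates 2 and 3 and untreated replicate 1. Just outside the window, all 6 libraries had a summit 5037 to 5260 bp upstream of DVL2, with percentiles between 24.4 and 68.0, on the side where PHF23 is the next protein-coding gene.

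DVL1 had the weakest main site on average. It lay at chr1:1282877-1283648, with summits 1446, 1345 and 1397 bp downstream of the start after insulin and 1331, 1389 and 1280 bp downstream without it. The fold was 4.17, 5.31 and 4.37 in insulin lists and 4.40, 3.13 and 4.78 in untreated lists. The summit held 20, 45 and 15 fragments after insulin and 52, 33 and 20 without it. The percentiles were 26.3, 53.8 and 34.0, and 55.3, 31.2 and 52.9, so it was in the lower part of some lists and near the middle of others. It was the only site within 5 kb of DVL1, although 12 other regions called in all 6 libraries lay within 100 kb. DVL2 had 10 such neighbours, and the other 5 ranked members between 0 and 4.

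By mean percentile over the libraries the order was ASXL1 (93.6 ± 4.54, SD, n = 6), SIN3A (90.2 ± 4.81), SUDS3 (86.7 ± 3.41), DVL3 (84.2 ± 6.44), BAP1 (80.0 ± 11.8), HDAC1 (67.2 ± 5.01, n = 4), DVL2 (51.5 ± 14.5) and DVL1 (42.3 ± 13.1). Every pair of neighbours in this order had overlapping ranges. The SUDS3 value is that of the upstream site, and the region at the SUDS3 start had a mean of 48.5 ± 17.7 (SD, n = 5). Within libraries, ASXL1 stood above SIN3A in 6 of 6, SIN3A above SUDS3 in 5 of 6 and SUDS3 above DVL3 in 4 of 6. DVL2 stood above DVL1 in 4 of 6. Beyond neighbours, ASXL1, SIN3A, SUDS3 and DVL3 did not overlap HDAC1, DVL2 or DVL1. By mean percentile of fold SIN3A came first (90.6), ASXL1 stood at place 5 (77.4) and DVL2 came last (37.6).

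**Figure D3:**
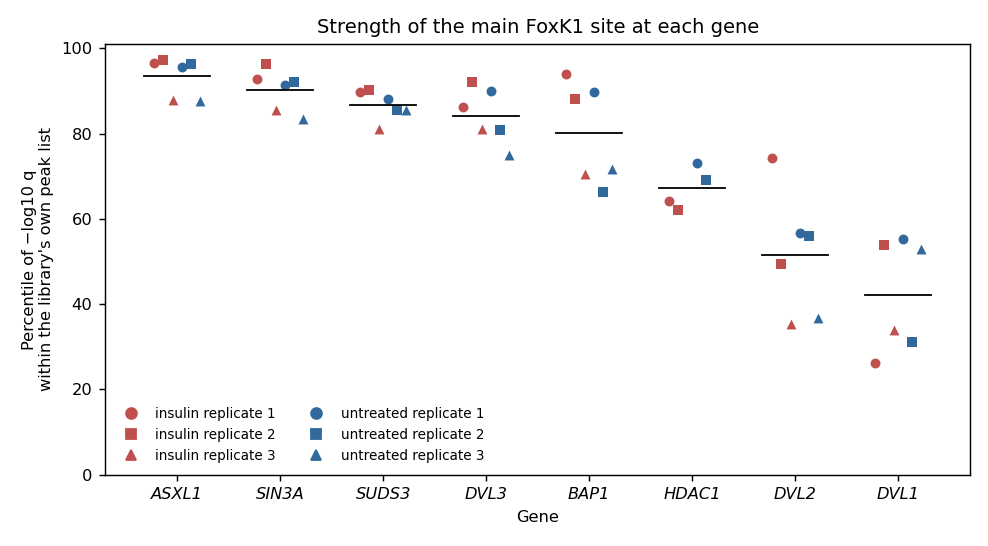
The percentile of −log10 q of the main site within the list of its own library is plotted for each gene, with insulin libraries in red, untreated in blue, symbols by replicate and black bars for the mean. ASXL1 lies between 87.6 and 97.3, and DVL1 between 26.3 and 55.3.

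At the main sites and the farther SIN3A site, the strongest summit varied by an SD of at most 94.4 bp between the libraries that called it. The SD of its position was 17 bp at the farther SIN3A site, 20.2 bp at BAP1, 26.2 bp at DVL3, 29.8 bp at HDAC1 (n = 4), 34.0 bp at SUDS3, 40.6 bp at ASXL1, 50.1 bp at the main SIN3A site, 58.2 bp at DVL1 and 94.4 bp at DVL2 (n = 6 for all but HDAC1). For the weaker regions it was 134 bp at the second ASXL1 region and 76.3 bp at the SUDS3 start (n = 5 each). It was 59.8 bp at the region upstream of SIN3A (n = 4) and 18.2 bp at that upstream of DVL2 (n = 3). The main sites at HDAC1, BAP1, ASXL1 and DVL2 had the strongest summit of every library that called them within 221 bp of the start. The mean positions of the strongest summits of SIN3A, SUDS3, DVL1 and DVL3 lay 1517, 3422, 1365 and 888 bp away from it.

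Insulin did not separate the libraries at any of the 8 member sites called in all of them. To compare treatments, the regions called in all 6 libraries were ranked by −log10 q in each library, so that the same 15887 regions were ranked in every list. The mean rank, as a percentile of these regions, was higher after insulin by 10.3 points at BAP1, 3.35 at DVL3, 3.27 at the main SIN3A site and 0.361 at ASXL1. It was lower after insulin by 10.5 points at DVL1, 5.53 at the farther SIN3A site, 1.96 at SUDS3 and 1.73 at DVL2. At all 8 of these sites the ranks of the treatments overlapped, so 0 of 8 were separated. The DVL2 ranks no longer overlapped once insulin replicate 1 was left out (a difference of -10.0). In that setting this held for 1212 of 15993 regions in the same direction and for 1298 in the other. With all 6 libraries 8.97% of all regions were separated, 4.66% with every insulin rank above every untreated rank and 4.31% the reverse. The two-sided exact permutation p was between 0.3 (DVL1) and 1 (ASXL1) with n = 3 per group, where 3 against 3 cannot go below 0.1. The Benjamini-Hochberg adjusted value over all 15887 regions was 0.998554 or higher at each of these sites in this exact permutation test. No region reached an unadjusted p below 0.1.

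BAP1 and DVL1 had the widest differences in either direction. The BAP1 ranks were 81.7, 67.2 and 51.7 in insulin replicates 1, 2 and 3 and 72.0, 42.4 and 55.1 in untreated replicates 1, 2 and 3. These are means of 66.8 ± 15 and 56.5 ± 14.8 (SD, n = 3), and the difference was smaller than the SD of either group. Leaving out insulin replicate 1 gave 2.88, untreated replicate 2 gave 3.09, insulin replicate 3 gave 16.7 and untreated replicate 1 gave 18.0. The DVL1 ranks were 1.87, 11.6 and 11.9 after insulin and 16.5, 9.84 and 30.4 without it, means of 8.45 ± 5.70 and 18.9 ± 10.5 (SD, n = 3). Without untreated replicate 2 the DVL1 ranks no longer overlapped (a difference of -15.7). In that setting this held for 1435 of 16770 regions in the same direction and for 1525 in the other. Without untreated replicate 3 the DVL1 difference was -5.36. With all libraries the BAP1 and DVL1 differences lay between the 5th and the 95th percentile of all regions, -17.1 and 16.3.

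Rank deviations of the same replicate number correlated at 0.123, 0.300 and 0.307 for numbers 1, 2 and 3, so the differences were also taken within numbers. Number 1 stood out little, as untreated replicate 1 correlated with insulin replicate 2 at 0.0933. SIN3A was the 1 main site of 7 with the same direction in all 3 pairs. Its insulin rank was higher by 2.67, 4.95 and 2.20 points in pairs 1, 2 and 3 (exact sign-flip test, two-sided, p = 0.25, which is as low as 3 pairs can go), a pattern that 14.6% of all regions showed in this direction and 13.8% in the other. The farther SIN3A site was not among these 7. It ranked at 74.1, 58.5 and 83.4 in insulin replicates 1, 2 and 3 and at 82.0, 74.3 and 76.3 in untreated replicates 1, 2 and 3. That is lower after insulin in pairs 1 and 2 and higher in pair 3. HDAC1 could be ranked only without the replicate 3 libraries, among 25214 regions. Its ranks were then 37.8 and 35.1 after insulin and 54.1 and 61.8 without it, which do not overlap, as was the case for 16% of all regions in this direction and 17.6% in the other. The two-sided exact permutation p was 0.333, the smallest value 2 against 2 allows.

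**Figure D4:**
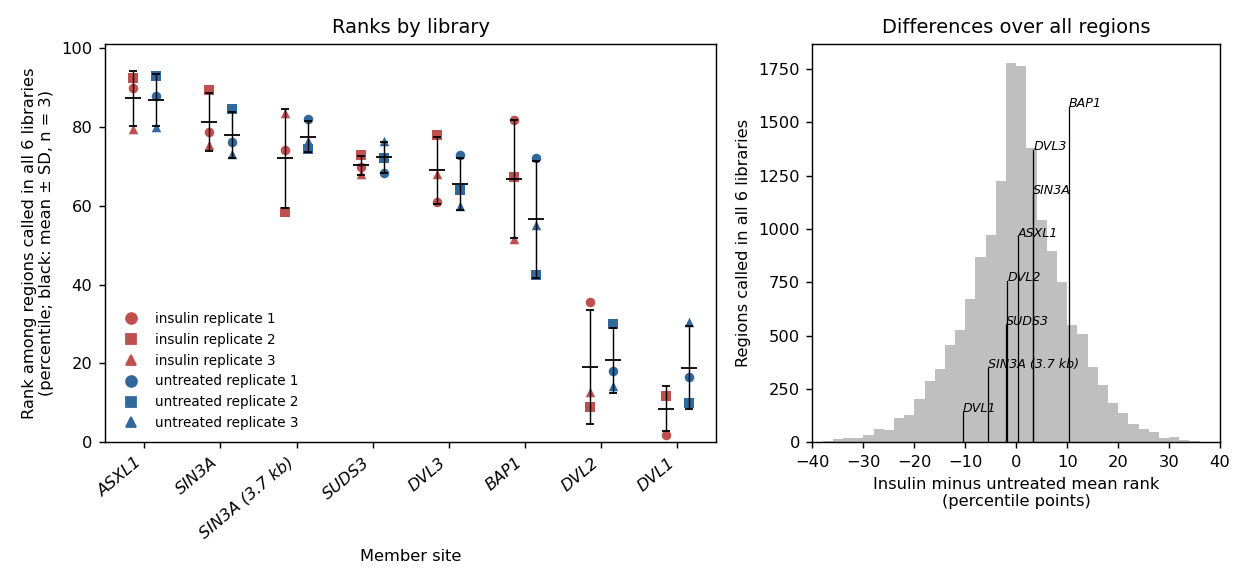
Left, the rank of each member site among the 15887 regions called in all 6 libraries, by library, with black marks for the mean ± SD of each treatment (n = 3). Right, the insulin-minus-untreated difference of mean ranks over all these regions (grey) with the member sites marked by lines whose heights carry no value; the members lie between -10.5 (DVL1) and 10.3 (BAP1).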

How the data were processed

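The data are 6 lists of FoxK1 ChIP-seq peaks, 3 per treatment. The 6 input libraries were not analysed here. Groups and replicate numbers came from the sample titles. Per the submitters' processing notes, the authors used fastp, Bowtie2, SAMtools and MACS2 on build hg19. Tool versions, the control and the calling threshold: not given in the sources used here. Peak names in the deposited lists carry the name of a single library, so the authors called peaks per library. The deposited fold is a linear ratio, the −log10 p and −log10 q deposited with it grow with depth, and the deposited score was not used. Read totals are not given, so library depth is unknown. Over all peaks the median fragments at a summit were 27, 38 and 21 with insulin and 43, 35 and 22 untreated, which limits the precision most in replicate 3.

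Fragments and background were worked out from the fold, taken as (fragments + 1) over (background + 1), and the Poisson upper tail p. For 100% of peaks a whole number matched both values, with a tolerance of 0.0005 on −log10 p (larger in proportion above 10). The procedure, the region step and the ranks were tested on simulated data. The simulated sites were evenly spaced, with equal noise in all libraries and no replicate effect. These tests therefore checked the code and not how the deposited lists vary. The 8 genes, their starts and all settings were chosen with earlier results of these data known. All 8 are named, and every region with a summit within 5 kb is given. Strands came from the RefSeq promoter table, and that of BAP1 from general knowledge. The distance of a summit is the peak start as deposited plus the summit offset, minus the start, and can be off by 1 bp. Treatments were compared by exact permutation over all 20 assignments of the ranks. The labels do not say what a replicate number shares. Rank deviations from the group mean correlated between same-numbered libraries at 0.123, 0.300 and 0.307, each above that library's correlation with other numbers, and they were taken as paired on that ground alone. Alternatives left out libraries or chromosomes, or changed the filter, region rule, ranking value, window or list length. Python 3.11.15, numpy 2.4.6, pandas 2.3.3, scipy 1.17.1 and matplotlib 3.10.9 were used.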

Additional observations from a re-analysis of the deposited data

How the results depend on the processing

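Of the 99 recomputed rank differences at the 7 main sites called in all libraries, 10 changed sign, and 4 sites did so with 1 library left out. Some of the 99 could not change sign. With the replicate block the mean difference equals the main one by construction. Taking the site nearest to the start gave the same sites and values, and ranking by −log10 p gave nearly the same values. The share of sign changes is therefore no measure of stability. The main site was picked anew each time. Without insulin replicate 2 the counts therefore use the farther SIN3A site, and do not show whether the main SIN3A site changed sign. The ASXL1 difference of 0.361 ranged from -2.68 to 3.83 with 1 library left out, and was negative without insulin replicate 1 (-0.923), insulin replicate 2 (-2.24) or untreated replicate 3. DVL2 (-1.73) ranged from -10.0 to 3.32 and was positive without insulin replicate 2, insulin replicate 3 (1.41) or untreated replicate 2 (3.12), and when ranked by fold (1.22). DVL3 (3.35) ranged from -1.18, without insulin replicate 2, to 7.35. SUDS3 (-1.96) ranged from -3.93 to 0.249, without untreated replicate 3, and was 0.993 without either replicate 3 library. The cause was not tested. BAP1 and DVL1 kept their sign in every alternative that gave a value. The SIN3A values were all positive, but the 1.22 without insulin replicate 2 was that of the farther site. With all libraries the farther site had -5.53. The main SIN3A site was not followed without that library. Its ranks in insulin replicates 1 and 3 were 78.7 and 75.3, against an untreated mean of 77.9.

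The number of main sites with separated treatments was 0, between 0 and 1 with each library left out, 1 without either replicate 3 library (HDAC1) and 1 with the replicate block (SIN3A). Over all regions, 740 were separated with insulin higher and 685 with untreated higher. These became 1298 to 2099 and 1212 to 1851 with each library left out, 4439 and 4033 without either replicate 3 library, and 2317 and 2185 with the replicate block. Fewer libraries, or pairs, make the rule easier to meet. Without chromosomes 2, 6, 14, 16, 17 and 20, untreated-higher regions numbered 452, with fewer regions ranked.

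Summits over the 8 starts averaged 13.3 per library, 9.17 in a 2 kb window and 17.7 in a 10 kb window, and between 13 and 14.2 with each library left out. The insulin-minus-untreated mean of 1.33 ranged from -0.5 (without untreated replicate 3) to 2.5. The replicate block gives the same 1.33 by construction, so it is no check of this value. Members with a main site in all libraries numbered 7, 6 with lists of equal length (without DVL1) and 5 with −log10 q of at least 5 (without DVL1 and DVL2), HDAC1 missing each time.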
